A study of Mus musculus with 8 samples.

Results

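The 74 genes described here encode subunits of the 5 complexes of oxidative phosphorylation and a few of their assembly factors. They are all genes of the array whose symbol begins with Ndufa, Ndufb, Ndufc, Ndufs, Ndufv, Sdha to Sdhd, Uqcr, Cox4 to Cox8, Atp5 or Cycs, and they lie on 101 of 20749 array elements, each a spotted cDNA clone. The array named 9030 genes in all. Of the 74, 27 belong to complex I, 4 to complex II, 7 to complex III, 15 to complex IV, 15 to complex V and 6 are assembly factors. No array element carried the symbol Cycs, and none of the genes encoded in the mitochondrial genome was found on the array, so all values concern nuclear genes.

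Oxidative phosphorylation takes place in the inner membrane of mitochondria. Complex I (NADH dehydrogenase) and complex II (succinate dehydrogenase) feed electrons into the chain, complex III passes them to cytochrome c, complex IV (cytochrome c oxidase) hands them to oxygen, and complex V (ATP synthase) uses the resulting proton gradient to make ATP. In the kidney, proximal tubules and the thick ascending limb are rich in mitochondria, since active salt transport there consumes much ATP. Uromodulin, the product of Umod, is made by the thick ascending limb, and mutant uromodulin is retained in its cells.

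Whole kidney RNA came from 4 homozygous Umod A227T males, 17 weeks old, and 4 heterozygous Umod C93F males, 38 weeks old, per the study's methods, while the labels state ages of 19 and 39 with no unit. Both alleles arose by chemical mutagenesis on the C3HeB/FeJ background. Each mutant was hybridised on 2 two-colour arrays with exchanged dyes against pooled RNA of wild-type males of its own line, from 4 littermates per the methods or 6 control animals per the labels. The pool is 1 control sample per line, so the p-values do not contain the variation among wild-type animals. The lines also differed in age, zygosity, pool and hybridisation series, and these cannot be told apart from the allele.

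Values are log2 ratios of mutant over wild-type pool, 1 for each mouse, from the brightest element of a gene. An element counted as measured if 1 channel or the other exceeded its local background by 2 times or more, and did so on both arrays of 3 or 4 mice. A member was past the test at a limma adjusted p under 0.10, and called when its fold was also over 1.4. The sources do not settle which dye held the mutant. The direction follows the processed ratios of the authors with their heat map legends and is likely rather than settled, since a literal reading of the scan names would turn every sign below. The arrays of C93F were dimmer, with 15.3% to 42.3% of spots above the background limit against 56.6% to 73.7% in A227T. Of the 74 members, 63 were measured in A227T, 50 in C93F, 46 in both and 7 in neither. Among the 28 members missing in a line or both, 17 were measured only in A227T and 4 only in C93F. Both channels were bright on all 8 arrays for 48 of the 63 and 26 of the 50 measured members. Umod itself, whose point mutations a spotted clone cannot show, gave a mean of -0.07 ± 0.09 (SD, n = 4) in A227T and -0.32 ± 0.13 (SD, n = 4) in C93F. It was past the test in C93F (limma adjusted p = 0.00359) and not in A227T (limma adjusted p = 0.658). Its clone was above the background limit in both lines, as were 13 proximal tubule genes in A227T and 11 in C93F.

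In C93F kidneys, 24 of the 50 measured members were lower than the wild-type pool past the test and 1 was higher. The shares over all measured genes were 15.2% lower and 7.92% higher, so 48% of members stood beside 15.2%. No member reached the fold of a call with limma or SAM, which 1.2% of all measured genes did. In A227T kidneys none of the 63 measured members was past the test in either direction, where 10.3% of all measured genes were, and none was called, beside 1.68% of genes. Of the 63, 7 had an unadjusted p under 0.05 in limma, all higher, against 20.1% of all measured genes, and SAM put 1 member past the same limit. The A227T count also depended on the centring of the arrays. With the median of each array set to 0 in place of loess, 20 of 63 members were higher past the test and none was lower, beside 14.2% of all genes higher and a median over all genes of 0.05. In the authors' processed ratios 11 of 56 members were higher and none was lower, beside 18% of genes higher and a median of 0.06. None of the 6 measured members of complex III was past the test in C93F. With 15.2% of all measured genes lower, so few members cannot set complex III apart. The members past the test in C93F were subunits of complexes I, II, IV and V. Promoters of the lowest C93F member of each of these 4 complexes that has an entry in the promoter table are given below, because these genes moved in the same direction in the same mice.

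The RefSeq promoter table (GRCm38.p6) held 63 of the 74 genes, with 250 bases before and 50 after the start of the gene. Nuclear genes of the respiratory chain are known for sites of NRF1, of the ETS factor GABPA, of YY1 and of SP1. The letters searched on both strands were CGCANGCG for NRF1, CCGGAAG for GABPA, AANATGGC for YY1 and GGGCGG for SP1, and none of these patterns contains another. Capitals mark matches on either strand, and all 4 genes lie on the minus strand, printed 5′ to 3′ along the gene: Ndufb4 at chr16:37654319-37654618, Sdhd at chr9:50603800-50604099, Cox7a2 at chr9:79759804-79760103 and Atp5pb at chr3:105959214-105959513.
Ndufb4: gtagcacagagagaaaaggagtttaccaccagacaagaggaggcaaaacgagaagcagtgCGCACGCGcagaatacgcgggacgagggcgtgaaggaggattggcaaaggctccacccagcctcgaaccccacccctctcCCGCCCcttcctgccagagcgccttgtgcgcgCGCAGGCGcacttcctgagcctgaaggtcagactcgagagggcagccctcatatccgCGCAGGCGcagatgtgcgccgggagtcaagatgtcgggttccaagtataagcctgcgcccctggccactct
Sdhd: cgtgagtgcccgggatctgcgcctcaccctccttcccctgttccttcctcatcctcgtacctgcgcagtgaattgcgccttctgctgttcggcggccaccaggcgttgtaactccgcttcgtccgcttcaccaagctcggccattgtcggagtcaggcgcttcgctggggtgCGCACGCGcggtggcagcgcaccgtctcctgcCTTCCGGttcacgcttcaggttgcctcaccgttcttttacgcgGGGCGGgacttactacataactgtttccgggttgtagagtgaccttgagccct
Cox7a2: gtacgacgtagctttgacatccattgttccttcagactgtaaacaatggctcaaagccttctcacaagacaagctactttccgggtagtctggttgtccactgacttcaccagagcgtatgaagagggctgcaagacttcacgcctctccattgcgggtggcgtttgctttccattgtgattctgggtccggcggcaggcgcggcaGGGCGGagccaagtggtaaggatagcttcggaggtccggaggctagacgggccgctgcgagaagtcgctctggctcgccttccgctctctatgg
Atp5pb: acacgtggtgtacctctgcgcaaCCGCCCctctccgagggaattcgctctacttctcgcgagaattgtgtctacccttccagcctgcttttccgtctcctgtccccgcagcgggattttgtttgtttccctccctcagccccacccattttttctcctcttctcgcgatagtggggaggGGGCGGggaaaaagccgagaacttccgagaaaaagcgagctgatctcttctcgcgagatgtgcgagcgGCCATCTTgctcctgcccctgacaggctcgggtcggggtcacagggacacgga

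The Ndufb4 window held 3 matches to the NRF1 letters and 1 to those of SP1. The Sdhd window held 1 match each for NRF1, GABPA and SP1, the Cox7a2 window 1 for SP1, and the Atp5pb window 2 for SP1 and 1 for YY1. Over the 63 members with a window, the NRF1 letters occurred in 34.9%, against 8.21% of all 32851 windows of the same length. A member counted when any of its windows matched, and 5 of the 63 had several windows, whereas the share of all windows counts each window singly. GABPA letters occurred in 27% of members against 8.86% of windows, YY1 letters in 27% against 6.05%, and SP1 letters in 44.4% against 35.7%. Among the 42 members with a window that were measured in C93F, the NRF1 letters were in 8 of the 21 that were lower past the test and in 7 of the other 21. For GABPA these counts were 7 and 5, for YY1 3 and 7, and for SP1 12 and 5. A match is a run of letters, not a shown binding site, and no test of these counts was made.

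Across the whole set, the median log2 ratio of the 50 members in C93F was -0.12, beside 0.01 over all 1995 named genes measured. It was -0.12 in mouse 1, -0.10 in mouse 2, -0.16 in mouse 3 and -0.10 in mouse 4, while the median of all genes ran from -0.0029 to 0.03 over the same mice. In each C93F mouse 74% to 88% of members lay below 0, beside 42.6% to 50.9% of all named genes measured. In the A227T mice these shares were 34.9% to 46% of members and 45.7% to 48.8% of genes. In A227T the median of the 63 members was 0.04 beside 0.02 over all 5167 genes, and the 4 mice gave 0.04, 0.02, 0.09 and 0.03. All 4 C93F mice lay below 0 and all 4 A227T mice above it, but the A227T medians stayed within 0.09 of 0.

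**Figure D1:**
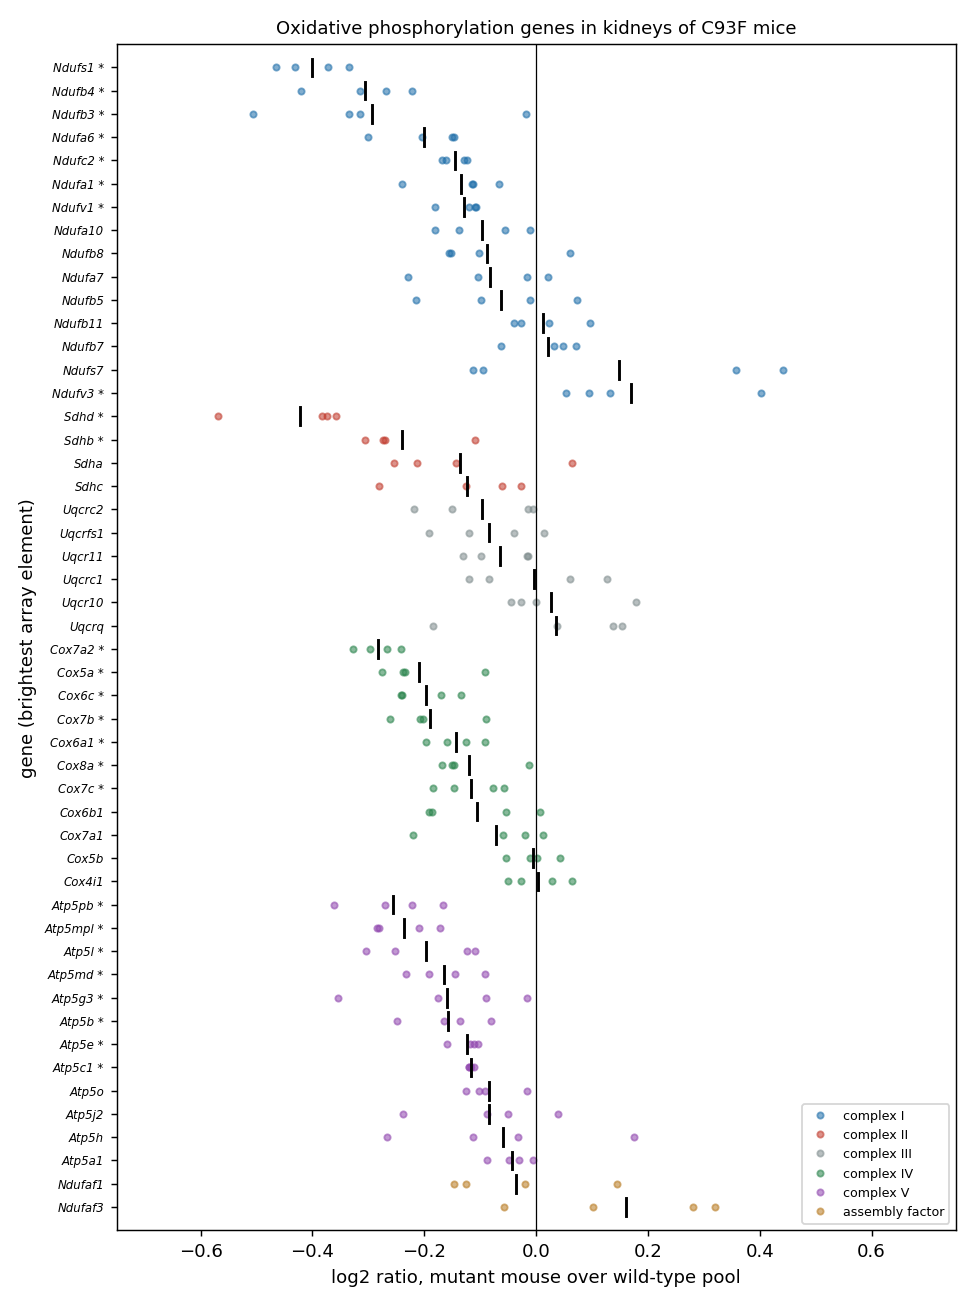
Log2 ratios of mutant over wild-type pool for the 50 members measured in C93F kidneys. Each point is 1 of 4 mice, the black bar is their mean, colours give the complex, and an asterisk marks the 25 members past an adjusted p of 0.10, of which 24 lie left of 0.

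Complex I takes electrons from NADH, and 7 of its 15 subunits measured in C93F were lower past the test and 1 was higher. Ndufs1, a core subunit that carries iron-sulfur clusters, gave -0.47, -0.33, -0.43 and -0.37 in the 4 C93F mice, with a mean of -0.40 ± 0.06 (SD, n = 4; limma adjusted p = 0.000366). In A227T the same gene gave -0.23, -0.02, -0.32 and 0.15. All C93F mice lay below all A227T mice. Ndufb4, an accessory subunit of the membrane arm, gave -0.27, -0.42, -0.31 and -0.22 in C93F (mean -0.31 ± 0.08, SD, n = 4; limma adjusted p = 0.00215) and -0.26, -0.28, 0.11 and -0.01 in A227T, where the values overlapped with those of C93F. Ndufc2, another accessory subunit, was -0.15 ± 0.02 (SD, n = 4; limma adjusted p = 0.035) in C93F. The other subunits of complex I that were lower past the test, named here after their values were seen, were Ndufb3, Ndufa6, Ndufa1 and Ndufv1, with means from -0.13 to -0.29.

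Ndufv3, an accessory subunit, was the member higher past the test in C93F, with 0.05, 0.09, 0.40 and 0.13 (mean 0.17 ± 0.16, SD, n = 4; limma adjusted p = 0.0812). Mouse 3 stood above the other 3. Ndufa7 was not past the test in C93F (-0.08 ± 0.11, SD, n = 4), and in A227T it had the smallest adjusted p of all members, at 0.113, with 0.23, 0.41, 0.26 and 0.03. Ndufc2 and Ndufa7 had the highest means of complex I with the same sign in all A227T mice, at 0.16 and 0.23. The element of Ndufc2 used in C93F was another one, and it gave a mean of 0.07 in A227T, with the lowest mouse at -0.09. Ndufa9 and Ndufa2 had the lowest, at -0.18 and -0.04, and neither was measured in C93F. The 24 subunits of complex I in A227T had a median of -0.01.

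Complex II oxidises succinate and belongs to both the chain and the citric acid cycle, and all 4 of its subunits were measured in both lines. Sdhd, a membrane anchor, was lower in C93F with -0.38, -0.36, -0.37 and -0.57, a mean of -0.42 ± 0.10 (SD, n = 4; limma adjusted p = 0.000537) or a fold of 1.34. The wild-type channel of Sdhd was bright on 8 of 8 C93F arrays and its mutant channel on 6, as for Ndufb4. In A227T it gave 0.26, 0.0036, 0.31 and 0.09, all above 0 and above every C93F mouse. Sdhb, the iron-sulfur subunit, was also lower in C93F, with -0.27, -0.11, -0.31 and -0.27 (limma adjusted p = 0.00749). In A227T its mean was -0.01, and mouse 2 stood alone above 0 at 0.33. Sdha, the flavoprotein that binds succinate, gave -0.14, 0.06, -0.21 and -0.25 in C93F and was not past the test (limma adjusted p = 0.129). The fourth subunit, the anchor Sdhc, had a mean of -0.12 in C93F and was not past the test either.

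Complex III carries electrons from ubiquinol to cytochrome c, and its 6 measured members had C93F means from -0.10 to 0.04. None was past the test in limma or SAM, and none had an unadjusted p under 0.05 in limma. Uqcrc2, one of its core proteins, gave -0.22, -0.01, -0.15 and -0.0048 in C93F and 0.04, 0.22, 0.14 and -0.0029 in A227T. Uqcr11, a small subunit, gave a mean of -0.06 in C93F and -0.0027 in A227T. Uqcrq, another small subunit, gave 0.04 in C93F and -0.14 in A227T on different brightest elements. On the element that both lines measured, Uqcrq was -0.09 in C93F and -0.13 in A227T. The median of the 6 complex III members was -0.03 in C93F and 0.08 in A227T. Cyc1, a further subunit outside the symbol rule and named after its values were seen, gave -0.03 in C93F and -0.12 in A227T. It was not past the test in either line.

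Complex IV hands electrons to oxygen, and 7 of its 11 subunits measured in C93F were lower past the test. Cox7a2, the widely expressed form of subunit 7A, gave -0.33, -0.24, -0.30 and -0.27 (mean -0.28 ± 0.04, SD, n = 4; limma adjusted p = 0.00163). In A227T it gave -0.01, 0.24, 0.01 and -0.15, above every C93F mouse. Cox5a gave -0.28, -0.09, -0.23 and -0.24 in C93F (limma adjusted p = 0.0126) and 0.30, 0.14, 0.10 and 0.28 in A227T. Cox7b gave -0.26, -0.21, -0.20 and -0.09 in C93F (limma adjusted p = 0.0178) and 0.11, 0.11, 0.31 and 0.24 in A227T. For both genes the 2 lines lay on opposite sides of 0 in every mouse, although neither was past the test in A227T. Cox6a1 and Cox8a, widely expressed forms of subunits 6A and 8, were also lower past the test in C93F with means of -0.14 and -0.12, as were Cox6c and Cox7c, named after their values were seen.

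Other subunits of complex IV lay near 0. Cox4i1, the widely expressed form of subunit 4, gave -0.05, 0.03, -0.03 and 0.06 in C93F, a mean of 0.0039 ± 0.05 (SD, n = 4). Its other measured element in C93F, the brightest one in A227T, gave -0.10 and was not past the test. Cox5b, named after its values were seen, gave a mean of -0.01. In A227T Cox4i1 was 0.21 ± 0.08 (SD, n = 4; limma adjusted p = 0.114) on its brightest element. Its other 3 measured elements gave 0.05, -0.04 and -0.12, the widest disagreement among elements of a gene in that line. The value of 0.05 is from the element that was brightest in C93F. Cox6b1 gave -0.11 in C93F and 0.19 in A227T and was not past the test in either. The median of the 12 complex IV subunits in A227T was 0.15, the highest of the 5 complexes there.

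Isoforms of complex IV that are typical of heart, skeletal muscle or brown fat were also on the array. In A227T Cox8b gave 0.20, 0.10, 0.69 and 0.10 (mean 0.27 ± 0.28, SD, n = 4) and Cox7a1 gave 0.19, 0.05, 0.53 and -0.18 (limma adjusted p = 0.449). Mouse 3 was highest for both, and without it the mean of Cox8b was 0.14. The wild-type channel of Cox8b was bright on 5 of 8 arrays and the mutant channel on all 8, so that Cox8b entered through the channel in which it was higher, and it was not measured where both channels had to be bright. Cox6a2, the isoform of heart and skeletal muscle, gave -0.33, -0.11, -0.08 and -0.10 in A227T, where the wild-type channel was bright on 4 of 8 arrays. In C93F Cox7a1 had a mean of -0.07 on another element than in A227T, and Cox8b and Cox6a2 were not measured. Genes of adipocytes and brown fat were also measured in A227T. Ucp1, the uncoupling protein of brown fat, gave 0.60, 0.38, 0.62 and 0.55 and was called (limma adjusted p = 0.000966), and Fabp4, a fatty acid carrier of fat cells, gave 0.74, 0.76, 1.20 and 0.58. Car3, a carbonic anhydrase abundant in fat and muscle, gave 0.92, 0.50, 0.42 and 0.14, highest in mouse 1. Of the 5 measured genes of that list beyond the members, these 3 were higher past the test in A227T, Pparg, a regulator of fat cells, was lower with -0.32, -0.20, -0.69 and -0.64, and the median over the list ran from 0.14 to 0.60 over the 4 mice. The part of fat RNA in the values of Cox8b and Cox7a1 was not tested.

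**Figure D2:**
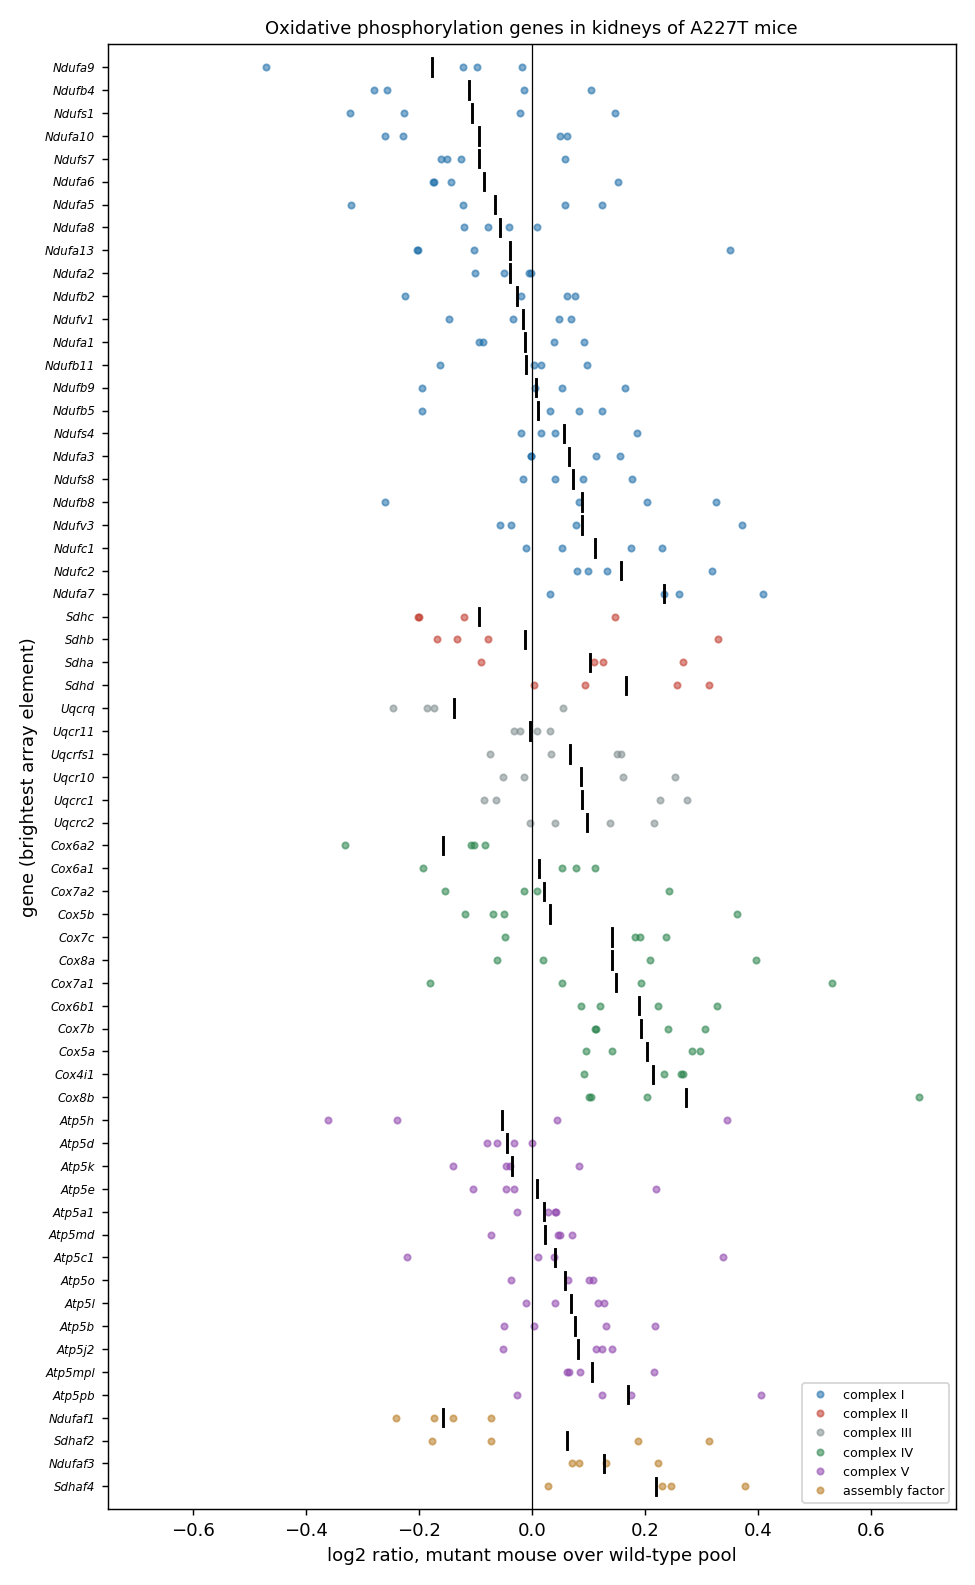
Log2 ratios of mutant over wild-type pool for the 63 members measured in A227T kidneys, by complex. Points are the 4 mice and black bars their means. No member is past an adjusted p of 0.10, and most points scatter on both sides of 0.

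Complex V makes ATP, and 8 of its 12 subunits measured in C93F were lower past the test. Atp5pb, subunit b of the peripheral stalk, gave -0.27, -0.22, -0.36 and -0.17 in C93F (mean -0.26 ± 0.08, SD, n = 4; limma adjusted p = 0.00519) and 0.12, 0.18, 0.41 and -0.03 in A227T, with no overlap. Atp5mpl, a small subunit of the membrane part, gave -0.21, -0.17, -0.28 and -0.28 in C93F (limma adjusted p = 0.00508). On its brightest element in A227T, which was not the one used in C93F, Atp5mpl gave 0.09, 0.07, 0.22 and 0.06. Its other measured elements in A227T gave means of -0.04 and of 0.0055, the latter on the element used in C93F. Atp5g3, one of the genes for subunit c of the rotor ring, gave -0.02, -0.35, -0.09 and -0.18 in C93F, and its values differed more between mice than those of the other named subunits of complex V (limma adjusted p = 0.0872). The remaining subunits past the test, named after their values were seen, were Atp5l, Atp5md, Atp5b, Atp5e and Atp5c1, with means from -0.12 to -0.20. The median of complex V was -0.14 in C93F and 0.04 in A227T.

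Assembly factors help to build the complexes without being part of them. Ndufaf1 and Ndufaf3, both factors of complex I, had means of -0.04 and 0.16 in C93F and of -0.16 and 0.13 in A227T. None of the 4 assembly factors measured in A227T or the 2 in C93F was past the test. Of the genes with several measured elements, all elements gave the same sign for 5 of 7 genes in C93F and 9 of 14 in A227T. In A227T a second element of Atp5o, named after its values were seen, reached 0.29 (limma adjusted p = 0.0293), and a second element of Cox7b reached 0.28 (limma adjusted p = 0.087), whereas their brightest elements were not past the test.

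The arrays with exchanged dyes gave different sizes. On the 4 C93F arrays whose mutant was read in red, the median over members ran from -0.26 to -0.15. On the 4 arrays read in green it ran from -0.10 to -0.05, so it lay below 0 on all 8 arrays. In A227T the medians ran from 0.10 to 0.16 in red and from -0.08 to 0.01 in green. Means over the 4 arrays of each orientation had the same sign for 14 of the 25 members past the test in C93F. Among these, Sdhd gave -0.40 in red and -0.44 in green, Ndufs1 gave -0.29 and -0.51, and Cox7a2 gave -0.34 and -0.22. Sdhb, in contrast, gave -0.50 in red and 0.02 in green, and Cox5a gave 0.02 and -0.44. Ndufv3, the member higher past the test, gave -0.12 in red and 0.46 in green. The average over both orientations, used for all other values, cancels a dye effect that is equal in both.

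**Figure D3:**
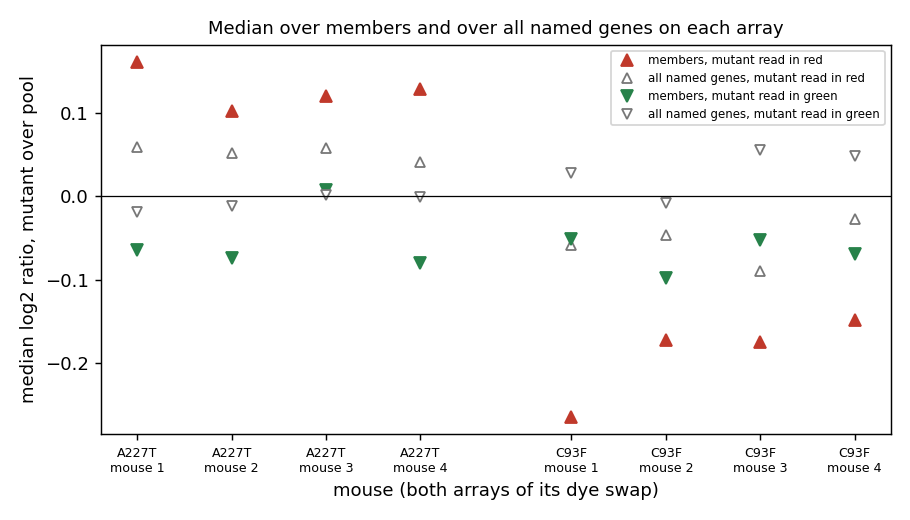
Median log2 ratio over the measured members (filled) and over all named genes (open) on each of the 16 arrays, 2 for each mouse, by the colour in which the mutant was read. The filled symbols of C93F lie below 0 on all 8 arrays, and those of A227T lie above 0 in red and near or below 0 in green.

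To ask whether the 2 lines differed, C93F was compared with A227T on elements measured in both, which held 44 members. Of these, 15 were lower in C93F than in A227T past the test and none was higher, also at an unadjusted p under 0.05, beside 17.4% lower and 8.74% higher over all 1373 shared genes. The median difference was -0.16 for members and -0.04 for all shared genes. Sdhd showed the largest difference, -0.59 ± 0.09 (SE; limma adjusted p = 0.00044, 4 mice against 4). It was followed by Atp5pb with -0.42 ± 0.10 (SE; limma adjusted p = 0.00502), Cox5a with -0.41 ± 0.09 (SE; limma adjusted p = 0.00265) and Cox7b with -0.38 ± 0.08 (SE; limma adjusted p = 0.00389). The 15 consisted of 4 members of complex I, 2 of complex II, 6 of complex IV and 3 of complex V. Mice of the 2 lines did not overlap for 15 of the 44 members, all with C93F lower, and 13 of these were also past the test. Over all 1373 shared genes, 15.4% did not overlap with C93F lower and 7.72% with C93F higher.

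Differences in the other direction were small. Ndufaf1, Ndufv3, Uqcrq and Ndufaf3 were 0.12, 0.08, 0.05 and 0.03 higher in C93F, and none was past the test. Besides the 4 members above, Ndufa7, Cox7a2, Ndufs1 and Cox6b1 differed by -0.32 to -0.30 past the test, and Cox8a, Atp5mpl, Sdha and Ndufc2 by -0.26 to -0.21. For Ndufa7, Cox6b1 and Sdha the difference was past the test although neither line was by itself.

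**Figure D4:**
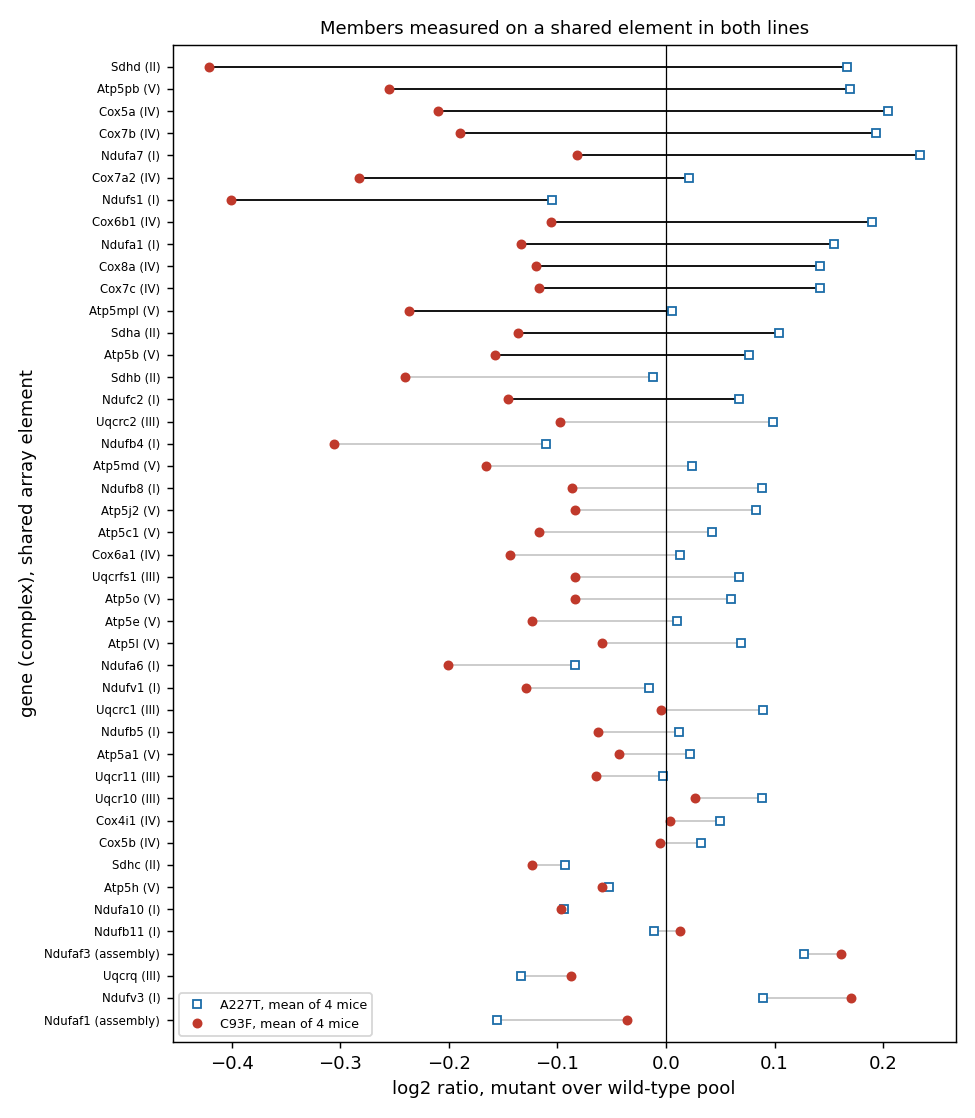
Mean log2 ratio of 4 A227T mice (open squares) and 4 C93F mice (filled circles) for the 44 members measured on a shared element, ordered by the difference. Black lines mark the 15 members whose difference is past an adjusted p of 0.10, all with C93F lower, led by Sdhd.

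Other genes of the same pathway were few on these arrays. Of further genes tied to the respiratory chain outside the symbol rule, 3 of 6 measured in C93F were lower past the test, and none of 14 was past it in A227T. The median of the 6 was -0.13. Those lower, named after their values were seen, were Atpif1, an inhibitor of ATP synthase, Coq9, of ubiquinone synthesis, and Higd2a, an assembly factor. The subunit Cyc1 and the electron transfer genes Etfb and Gpd2 were not past the test. Of assembly factors outside the rule, none of 11 in A227T and none of 1 in C93F was past the test. A list of nucleotide and phosphate carriers with related genes held 1 lower of 5 in C93F and 2 higher of 7 in A227T. These, named after their values were seen, were the outer membrane pore Vdac1 in C93F, and the pore Vdac3 and the creatine kinase Ckmt1 in A227T. The inner membrane carriers of the list that were measured, Slc25a3, Slc25a5 and Slc25a23, were not past the test in either line. Of a list of antioxidant enzymes, 3 of 5 were lower past the test in C93F, with a median of -0.24, and none of 8 was past it in A227T. The 3, named after their values were seen, were Cat, an enzyme of peroxisomes, and Sod1 and Gpx1, which are largely cytosolic. Sod2, the superoxide dismutase of the mitochondrial matrix, gave -0.10 in C93F and was not past the test (limma adjusted p = 0.158). Of regulators of mitochondrial gene expression, 1 of 3 was lower in C93F and none of 8 was past the test in A227T. Ppargc1a, the coactivator that drives mitochondrial biogenesis, gave 0.14, 0.20, -0.39 and -0.19 in A227T.

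Marker genes of the proximal tubule fell in the same C93F kidneys. Of 11 measured, 9 were lower past the test and 1 was higher, the median of the list ran from -0.48 to -0.25 over the 4 mice, and 4 were called. The largest change among these was in Slc34a1, the sodium phosphate cotransporter of the proximal tubule, with -0.66, -0.64, -0.58 and -0.71 (limma adjusted p = 2.53e-05). In A227T 3 of 13 were lower and 1 higher, with a median of -0.05, while 3 of 5 leukocyte genes were higher past the test. Of 10 endothelial and fibroblast genes there, 3 were higher, the matrix genes Col1a1, Col3a1 and Dcn, and 2 were lower, the endothelial genes Eng and Pecam1, named after their values were seen. Of 3 measured thick ascending limb genes, 2 were lower past the test in C93F, Umod and Cldn10, the latter named after its values were seen. Red cell genes were lower past the test for 2 of 3 in C93F, and of 2 leukocyte genes and 3 endothelial and fibroblast genes, 0 and 1 were lower. In RNA of a whole kidney, fewer tubule cells and less RNA per cell cannot be told apart, and the part of the proximal tubule in the values of the members was not tested.

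The size of the C93F count depended on single mice. Without mouse 3 there were 13 members past the test, and without mouse 4 there were 16. The 24 lower members were below 0 in all 4 mice, so their means could not leave that side when 1 mouse was omitted.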

How the data were processed

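RNA from kidneys of 4 A227T and 4 C93F mutants was profiled on 16 two-colour cDNA arrays against wild-type pools. The deposited scanner files hold the foreground and background intensity of each spot in 2 channels, before normalization by the authors, and a deposited flag score with which the scanner software marked spots not found. Such spots got no weight and did not count as bright. From 3100 to 5894 spots were so marked on an A227T array and 0 on every C93F array, so this screen acted in A227T only. The authors also deposited processed log2 ratios, of which scale, centring and direction are not stated. These matched the scans on a log2 scale, served to set the sign of the arrays, and were used otherwise as an alternative. No column was left unassigned to a mouse. In C93F the scans of mouse 1 match the processed column of mouse 2 and the reverse, which leaves means unchanged, and mice are numbered here by the scans. 

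With R 4.3.3 and limma 3.58.1, background was corrected by normexp (offset 50), arrays were normalized by loess, signs were turned to mutant over wild type, and spots of a clone and then both arrays of a mouse were averaged. Scans of the lines were matched by spot position, since 217 of 20794 positions bear a different clone name in C93F. Gene names came from the platform annotation, which names 12771 positions. Elements were tested against 0 with lmFit and eBayes in each line and between lines over all 8 mice, with Benjamini-Hochberg adjustment over all elements measured (9211 in A227T, 3339 in C93F and 2203 in both). The number of arrays limits the precision. Nothing in the sources used here says that the mice of a line came from separate litters, so p-values measure the spread between these mice.

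Members were named when they were called, belonged to a fixed group of isoforms, had the 2 highest or 2 lowest means of a complex in a line with the same sign in all 4 mice, or had the 4 largest differences between lines each way. The members, gene lists and this rule were chosen with earlier results of these data known. The steps were tested on simulated data, in which the planted changes were larger than any member mean given by the main steps. The detection of changes as small as those of the members was therefore not tested. Alternatives covered background correction, normalization, filters, SAM, 1 mean value per gene, the processed ratios of the authors, a replicate block and the omission of each mouse.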

Additional observations from a re-analysis of the deposited data

Results flagged for a closer look

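In 4 of 51 groups of 4 mice checked among the named members, 1 mouse stood apart by Dixon's criterion, which chance alone meets in about 1 group of 20 by construction. The gap to the nearest mouse divided by the range was 0.901 for Cox6a2 in A227T (mouse 1 lowest), 0.849 for Atp5mpl in A227T (mouse 3 highest), 0.883 for Sdhd in C93F (mouse 4 lowest) and 0.859 for Cox8a in C93F (mouse 4 highest). In Sdhd the other 3 C93F mice still lay between -0.38 and -0.36.

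For 12 named members the effect differed between the lines by the limma test of the difference. The differences of C93F minus A227T were -0.59 for Sdhd, -0.42 for Atp5pb, -0.41 for Cox5a, -0.38 for Cox7b, -0.32 for Ndufa7, -0.30 for Cox7a2, -0.30 for Ndufs1, -0.30 for Cox6b1, -0.26 for Cox8a, -0.24 for Atp5mpl, -0.24 for Sdha and -0.21 for Ndufc2. Line, age, zygosity and pool cannot be told apart in them.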

How the results depend on the processing

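No A227T member was called under any alternative run, and in C93F none was, except 2 with local background subtraction and 1 in the authors' processed ratios. Members past the test in A227T numbered 0, and 2 without background correction, 20 with median centring, 4 with print-tip loess, 4 with both channels above background, 11 in the authors' processed ratios, 1 with the mean over a gene's elements and 1 with SAM. Leaving out 1 mouse gave 0 to 1. In C93F the count of 25 became 6 with no filter on dim spots, where 20749 elements shared the adjustment, and 16 in the authors' processed ratios. The shares of all genes lower were 1.36% and 14.6% there. Where both channels had to be bright, 21 of 41 members were lower past the test, beside 20.7% of all elements. Of the 25, 22 were measured under that filter and all 22 stayed past the test. Leaving out 1 mouse gave 13 to 18. The count of 15 members that differed between the lines became 30 with median centring, 23 in the authors' processed ratios and 4 with no filter, while the share of all genes lower in C93F moved from 17.4% to 32.5%, 32% and 2.12%. Leaving out 1 mouse gave 8 to 17, with 8 without C93F mouse 3 and 9 without C93F mouse 1. With the replicate block 14 were past the test, all among the 15. The numbers do not pair the mice, which come from different lines and pools. Atp5g3 turned from -0.16 to 0.014 in C93F in the authors' processed ratios (limma adjusted p = 0.896). The cause was not tested. Of 14 named members past the test in C93F, 6 stayed past it under all alternatives in which they were measured, and Ndufv3 lost it in 9. Among the other comparisons of single members and medians with an alternative, 687 kept their side of the threshold. Of these, 24 changed sign near 0 by less than the spread between mice. A further 41 became stronger, 39 weaker and 15 moved by more than the spread between mice, and 6 of these 15 changed sign. On the dimmer C93F arrays 24 members were unmeasured, of which 17 were measured in A227T and 7 in neither line.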
